A study of Mus musculus with 12 samples.

Results

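Cyclic AMP reaches the genome through a small set of proteins, and their 10 genes are the subject of this account. They are the CRE-binding bZIP factors *Creb1*, *Atf1*, *Crem* and *Creb5*, the CREB-regulated transcription coactivators *Crtc1*, *Crtc2* and *Crtc3*, and the salt-inducible kinases *Sik1*, *Sik2* and *Sik3*. They were listed by symbol as the transcription arm of cAMP signalling, with earlier results of these data known, and each matched 1 of the 53379 genes of the count table. RNA was measured in bone marrow-derived macrophages (BMDMs) of 4 mice of the C57Bl/6J strain. Cultures from each mouse stayed untreated or received 1 μM fenoterol, an agonist of the B2 adrenergic receptor (B2AR), for 1 h or 4 h, so that each of the 3 groups held 4 libraries and each mouse gave 1 library per group. According to the methods, the marrow was grown in medium conditioned by L929 cells, a fibroblast line that secretes macrophage colony-stimulating factor, and this medium was shared by all groups. No allele or transgene is named. The mRNA is that of a whole culture, in which a change in the number of cells that carry a transcript and a change in its amount per cell cannot be told apart.

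B2AR couples to a stimulatory G protein, and the cAMP it raises activates protein kinase A (PKA). PKA phosphorylates CREB and its relatives on the cAMP response element (CRE), which allows them to recruit the acetyltransferases CBP and p300. A parallel branch runs through the SIKs: in resting cells they phosphorylate the CRTCs, which are then held in the cytoplasm by 14-3-3 proteins, and PKA inhibits the SIKs so that dephosphorylated CRTCs enter the nucleus and join CREB. *Crem* and *Sik1* are themselves classical CREB targets. The *Crem* gene has an internal promoter that gives the short repressor ICER, and SIK1 again phosphorylates CRTCs, so both are known as feedback arms of the pathway. In macrophages, the SIK branch is known for its control of CRTC3 and of *Il10*.

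The macrophage label was checked against 7 markers, including *Adgre1*, which encodes F4/80, and *Csf1r*. All 7 were abundant in the 12 libraries, and the lowest count of any of them was 1253, for *Mertk*. The summed normalized count of the T cell, B cell and mast cell or basophil markers was at most 6.26 in any library, and the erythroid markers were at 0. Dendritic cell markers summed to 4.63 to 25.5, neutrophil markers to 325 to 620 and fibroblast markers to 418 to 1299 over the 12 libraries, with ranges that overlapped between the groups. The macrophage markers summed to 735018 to 773451 in untreated BMDMs and to 626239 to 716598 at 4 h, and not all 7 moved one way. At 4 h against untreated BMDMs the means of *Adgre1*, *Cd68*, *Csf1r*, *Lyz2* and *Mertk* were lower, *Mertk* going from 3859 to 1352, and those of *Itgam* (9115 to 12221) and *Fcgr1* (5391 to 8877) were higher. The part of these shifts in the results at 4 h was not tested. Total counts ran from 14580533 to 24153284 per library. All values below are normalized counts, that is counts scaled to the mean library size with TMM factors, unless another scale is named.

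A single library stood apart for a gene of the set. In the untreated library of mouse 3, *Sik1* had 22 counts, against 192 to 212 in the other untreated libraries. Among 10245 genes with a mean of at least 50 in the other untreated libraries, 2 were more than 4 times below the lowest other value there, *Sik1* and the pseudogene *Rps13-ps2*. The other libraries had 0 to 11 such genes. By the same measure *Rps13-ps2* was also low in the 1 h and 4 h libraries of mouse 3, and *Sik1* was not. Changes, levels and shares of *Sik1* that rest on untreated BMDMs are therefore given with and without this library, and the source of the low value was not tested.

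The CRE is the palindrome TGACGTCA, and its half-site is TGACG or, on the other strand, CGTCA, so that each full site also counts as overlapping half-sites. RefSeq promoters of GRCm38.p6, from 250 bases before to 50 after a transcription start, were found for 7 of the 10 genes, with 8 entries. *Crem*, *Crtc2* and *Sik1* had no match. The promoters of *Creb5*, *Sik3* and *Crtc3* are printed because these genes had the largest rises at 4 h after *Crem* and *Sik1*, with capitals for the searched letters, 5′ to 3′ on the strand of the gene. They lie at chr6:53287053-53287352 on the plus strand, chr9:46012570-46012869 on the plus strand and chr7:80688828-80689127 on the minus strand.
Creb5: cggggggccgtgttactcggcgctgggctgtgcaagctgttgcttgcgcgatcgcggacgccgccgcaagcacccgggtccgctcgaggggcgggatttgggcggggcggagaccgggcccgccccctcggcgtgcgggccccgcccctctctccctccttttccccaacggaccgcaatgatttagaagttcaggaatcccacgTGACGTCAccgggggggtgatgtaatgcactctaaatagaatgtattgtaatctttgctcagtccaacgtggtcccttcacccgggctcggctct
Sik3: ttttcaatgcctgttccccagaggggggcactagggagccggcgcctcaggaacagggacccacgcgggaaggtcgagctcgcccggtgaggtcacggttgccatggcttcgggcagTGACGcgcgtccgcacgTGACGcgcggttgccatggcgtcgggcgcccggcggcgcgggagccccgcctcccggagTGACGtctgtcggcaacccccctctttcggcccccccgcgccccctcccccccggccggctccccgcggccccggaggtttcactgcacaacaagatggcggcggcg
Crtc3: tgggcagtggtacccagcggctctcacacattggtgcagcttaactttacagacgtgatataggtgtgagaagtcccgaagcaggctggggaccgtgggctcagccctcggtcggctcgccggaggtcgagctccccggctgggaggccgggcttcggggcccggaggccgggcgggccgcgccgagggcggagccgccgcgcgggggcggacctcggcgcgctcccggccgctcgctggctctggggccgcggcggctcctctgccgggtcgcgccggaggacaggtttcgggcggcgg
*Creb5* held 1 full site, which began 45 bases before the start. *Sik3* held 3 half-sites, beginning 133, 116 and 57 bases before the start, and *Crtc3* held none. The other entries held no full site. *Sik2* held 2 half-sites and *Atf1* held 1, while *Creb1*, *Crtc1* and the other *Creb5* entry held none. Of 32851 promoters of this length, 1.79% held the full site and 20.8% a half-site, so a half-site is common in such windows and a full site is not. The letters show neither binding nor use.

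At 1 h, 5 of the 10 genes differed from untreated BMDMs, with 4 higher (*Crem*, *Sik1*, *Creb5* and *Crtc3*) and *Crtc1* lower, where a difference means an edgeR quasi-likelihood test with a Benjamini-Hochberg adjusted p, over all genes tested, of less than 0.05. Of all 12386 genes tested, 20.1% differed at 1 h, 10.0% being higher and 10.1% lower. With libraries scaled by size only, 8 of the 10 genes differed at 1 h, with 4 higher and 4 lower. Of all 12386 genes tested, 2918 differed with this scaling, in place of 2493. Among the genes that differed, 32.5% were higher in place of 49.8%. At 4 h, 7 of the 10 genes differed and all 7 were higher: *Crem*, *Sik1*, *Crtc3*, *Sik3*, *Creb5*, *Sik2* and *Atf1*. The background at 4 h was 40.0%, with 19.7% higher and 20.4% lower. Between 1 h and 4 h, 8 of the 10 genes differed, with 6 higher at 4 h and *Crem* and *Sik1* lower, against 38.5% of all genes, 18.7% being higher and 19.8% lower at 4 h. With library size only, 65.7% of the genes that differed between the time points were higher at 4 h, in place of 48.6%, and the median of all genes moved from 0.01 to 0.10 on the log2 scale. The median log2 fold change of the 10 genes was -0.07 at 1 h and 0.66 at 4 h against untreated BMDMs, and that of all genes tested was -0.0049 and 0.0042. All 10 genes passed the filter on low counts. The 1 h and 4 h comparisons share the untreated libraries.

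**Figure D1:**
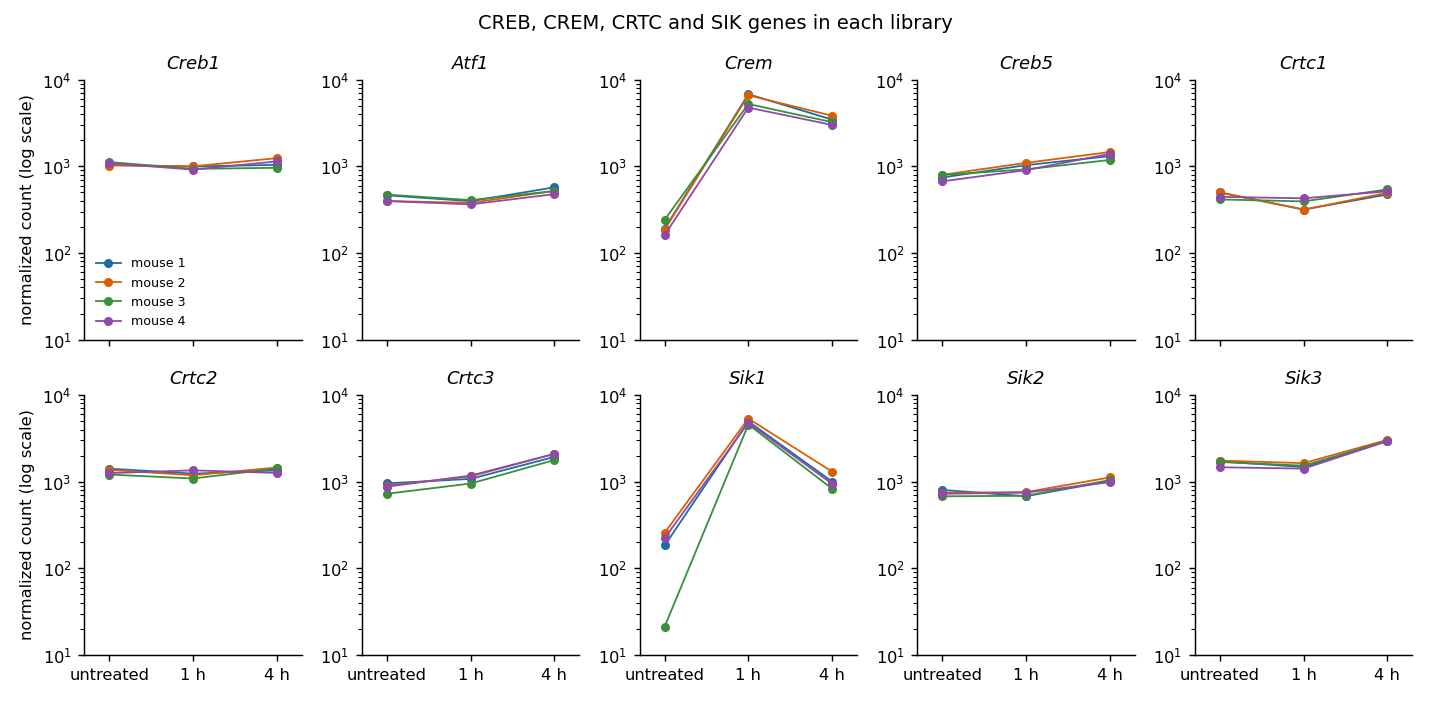
Normalized counts (log scale) of the 10 genes in each library, in untreated BMDMs and after 1 h and 4 h of fenoterol, with libraries of the same mouse joined. *Crem* and *Sik1* had 4568 to 6811 at 1 h and lower at 4 h, *Crtc3* and *Sik3* were highest at 4 h, and the single low point is *Sik1* in the untreated library of mouse 3.

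**Figure D2:**
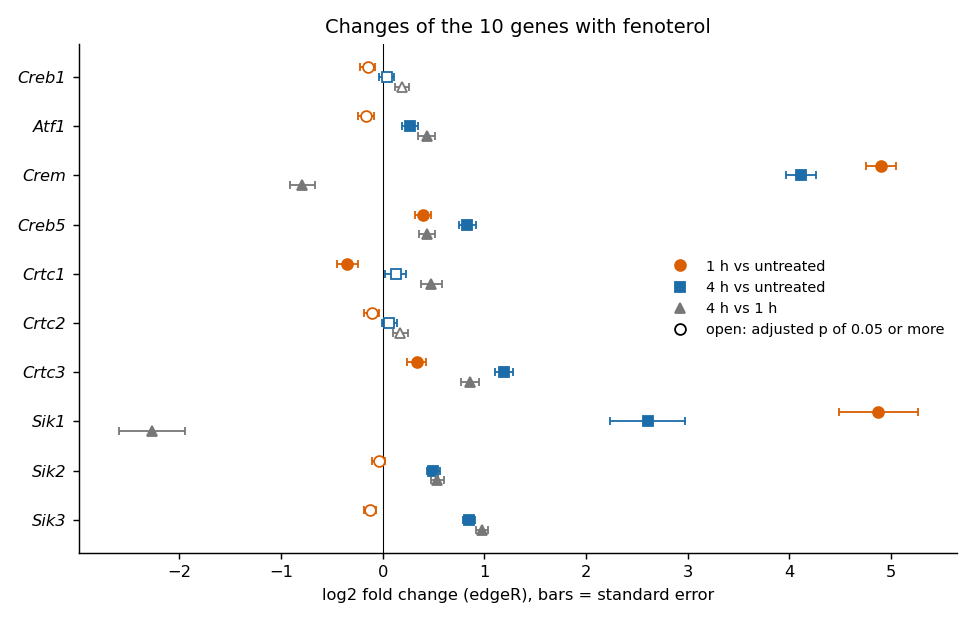
Log2 fold changes of the 10 genes from edgeR for 1 h and 4 h against untreated BMDMs and for 4 h against 1 h, with standard errors as bars, and open symbols where the adjusted p was 0.05 or more. *Crem* (4.90) and *Sik1* (4.87, or 4.49 without the untreated library of mouse 3) rose most at 1 h, and the changes of the other genes lay between -0.35 and 1.19.

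Among the bZIP factors, *Crem* carried most of the response. *Crem* (ENSMUSG00000063889, GRCm38 chromosome 18, 3266048 to 3337748, minus strand) encodes both activators and the repressor ICER, and its 39 annotated transcripts were counted together, so these data do not separate them. In untreated BMDMs its normalized count was 191, 186, 242 and 162 in mice 1 to 4. At 1 h it was 6811, 6613, 5244 and 4770 in the same mice, and at 4 h 3468, 3845, 3240 and 3008. Each library at 1 h was above each at 4 h, and each at 4 h above each untreated one, with no overlap. The rise was 29.9-fold at 1 h (log2 fold change 4.90 ± 0.15 SE, edgeR adjusted p = 8.24e-12) and 17.3-fold at 4 h (4.11 ± 0.15, edgeR adjusted p = 5.13e-11). Between the time points *Crem* fell by 0.79 ± 0.12 on the log2 scale (edgeR adjusted p = 0.000136), in 4 of 4 mice. By p-value it ranked 21 at 1 h and 27 at 4 h among all genes. On 8.01% of its exon bases lies the opposite-strand gene *Gm6225*, which had 50 counts in all libraries together against 37631 for *Crem*.

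*Creb1* (ENSMUSG00000025958, chromosome 1, 64532645 to 64604548, plus strand), which encodes CREB itself, did not pass the threshold in any of the 3 comparisons. It stood at 1041, 1022, 1121 and 1085 in untreated BMDMs, at 997, 1001, 935 and 918 at 1 h, and at 1041, 1243, 963 and 1140 at 4 h. All 4 libraries at 1 h were below the untreated ones, by a log2 difference of -0.15 ± 0.07 that missed the threshold (edgeR adjusted p = 0.179), whereas those at 4 h spread over both sides (0.04 ± 0.07, adjusted p = 0.716). The difference of 0.19 ± 0.07 between 4 h and 1 h had an adjusted p of 0.0516 in edgeR, and with the mouse as a block it was 0.18 with an adjusted p of 0.0368.

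*Atf1*, the closest relative of CREB (ENSMUSG00000023027, chromosome 15, 100227819 to 100261244, plus strand), showed a small late rise. Its counts were 463, 398, 472 and 397 in untreated BMDMs, 397, 379, 408 and 364 at 1 h, and 572, 520, 519 and 478 at 4 h. Every 4 h library was above every untreated library, while the untreated and 1 h libraries overlapped. The log2 fold change was -0.16 ± 0.08 at 1 h (edgeR adjusted p = 0.195) and 0.27 ± 0.08 at 4 h (edgeR adjusted p = 0.0148). The rise at 4 h missed the threshold without the untreated library of mouse 4 (adjusted p = 0.0602) or the 4 h library of mouse 1 (adjusted p = 0.0501). Of the 50-base stretches of its transcripts, 12.1% also occur in other genes, *Atf1-ps* among them, so a part of its reads may be placed elsewhere.

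*Creb5* (ENSMUSG00000053007, chromosome 6, 53287270 to 53700376, plus strand), a bZIP factor closer to ATF2 than to CREB, and the gene whose promoter above holds the full site, rose in steps. It measured 744, 799, 796 and 672 in untreated BMDMs, 1033, 1098, 924 and 906 at 1 h, and 1312, 1463, 1185 and 1395 at 4 h. The 3 groups did not overlap, and in each mouse the 4 h library was highest. Its fitted log2 change was 0.40 ± 0.08 at 1 h (edgeR adjusted p = 0.00310), 0.83 ± 0.08 at 4 h (edgeR adjusted p = 1.42e-06) and 0.44 ± 0.08 between the time points (edgeR adjusted p = 0.000670).

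The make-up of the bZIP set changed accordingly. Per kilobase of exon, a scale on which genes of different length can be compared, *Atf1* held 48.5% to 52.3% of the summed level of the 4 bZIP genes in untreated BMDMs, *Creb1* 27.6% ± 1.76 (SD, n = 4), *Crem* 11.7% ± 1.22 and *Creb5* 10.7% ± 0.825. At 1 h *Crem* alone held 80.6% ± 2.20, and at 4 h 65.3% ± 1.57. With the length of the longest transcript in place of all exons, the share of *Crem* averaged 83.0% at 1 h and 68.9% at 4 h. *Creb1* and *Atf1* thus held smaller shares of a sum that itself went from 282 ± 20.9 per kilobase to 1230 ± 179 and 879 ± 73.8, although neither was lower by the test with TMM scaling. The shares of *Atf1* and *Creb5* depend on the length used. The exons of *Creb5* cover 25021 bases and its longest transcript 7917. By the longest transcript, untreated BMDMs had a share of 20.2% for *Creb5* and of 38.7% for *Atf1*.

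**Figure D3:**
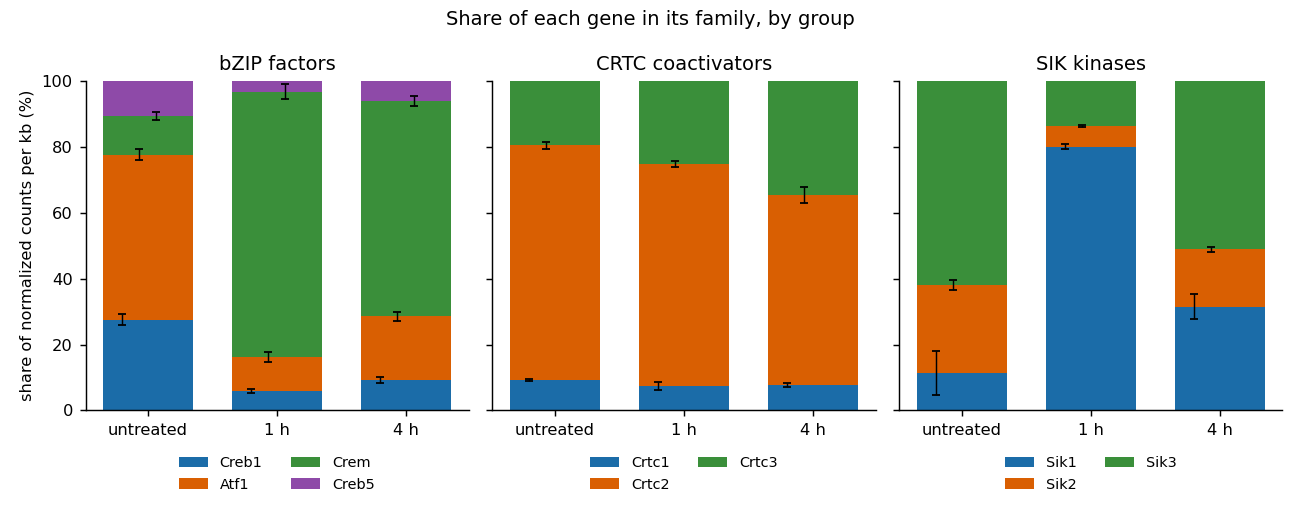
Share of each gene in its family's summed normalized count per kilobase of exon (%), as means of 4 libraries per group; the error bar at the top of a segment is the SD of that segment's share, and the uppermost segment has none. *Crem* went from 11.7% to 80.6% and 65.3%, *Sik1* from 11.2% (14.4% without the untreated library of mouse 3) to 80.1% and 31.5%, and *Crtc3* from 19.5% to 25.1% and 34.5%.

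Of the coactivators, *Crtc3* was the one that rose above its untreated level. Its product (gene ENSMUSG00000030527, chromosome 7, 80586627 to 80688877, minus strand) is the family member linked to IL-10 production in macrophages. Its normalized counts were 956, 899, 725 and 876 in untreated BMDMs, 1077, 1150, 952 and 1175 at 1 h, and 1931, 2097, 1775 and 2088 at 4 h. The 4 h libraries were all above the others, and the 1 h and untreated libraries overlapped only where the 1 h library of mouse 3 fell just below the untreated library of mouse 1. In the edgeR fit the log2 change was 0.33 ± 0.09 at 1 h (edgeR adjusted p = 0.0162) and 1.19 ± 0.09 at 4 h (edgeR adjusted p = 7.59e-08), or 2.28-fold. From 1 h to 4 h the gene gained 0.86 ± 0.09 (edgeR adjusted p = 3.05e-06), in 4 of 4 mice. The printed promoter of *Crtc3* held none of the searched letters.

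*Crtc1* (ENSMUSG00000003575, chromosome 8, 70382355 to 70439579, minus strand), known best from neurons, was the only one of the 10 genes that was lower at 1 h by the test with TMM scaling and all libraries. It measured 500, 500, 415 and 445 in untreated BMDMs, 317, 316, 394 and 428 at 1 h, and 473, 496, 541 and 515 at 4 h. The low values at 1 h were those of mice 1 and 2, with log2 differences of -0.65 and -0.66, against -0.07 and -0.06 in mice 3 and 4, and the untreated and 1 h groups overlapped. The log2 fold change was -0.35 ± 0.10 at 1 h (edgeR adjusted p = 0.0256), 0.13 ± 0.10 at 4 h (edgeR adjusted p = 0.356) and 0.48 ± 0.10 between the time points (edgeR adjusted p = 0.00196). The call at 1 h was lost when the untreated or the 1 h library of mouse 1 or 2 was left out, with adjusted p from 0.0755 to 0.0826.

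*Crtc2* (ENSMUSG00000027936, chromosome 3, 90254163 to 90264125, plus strand), the coactivator studied in liver gluconeogenesis, was the highest of the 10 genes per kilobase in untreated BMDMs. Its counts were 1413, 1367, 1209 and 1255 in untreated BMDMs, 1237, 1186, 1087 and 1351 at 1 h, and 1349, 1455, 1420 and 1261 at 4 h, and all 3 groups overlapped. Its fitted log2 change was -0.11 ± 0.07 at 1 h (edgeR adjusted p = 0.356) and 0.06 ± 0.07 at 4 h (edgeR adjusted p = 0.527). Between the time points it was 0.17 ± 0.07 (adjusted p = 0.0760 in edgeR), and with the mouse as a block 0.18 (adjusted p = 0.0456).

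Per kilobase, *Crtc2* held 71.3% ± 1.00 of the coactivator set in untreated BMDMs, 67.5% ± 0.942 after 1 h and 57.7% ± 2.42 after 4 h. The share of *Crtc3* was 19.5% ± 0.986, 25.1% ± 1.17 and 34.5% ± 2.51, or 25.9%, 32.5% and 43.2% by the longest transcript. The summed level was 449 ± 36.1, 440 ± 36.9 and 581 ± 21.7. Within mice, the log2 change of *Crtc3* at 4 h exceeded that of *Crtc1* by 1.07 (range 0.91 to 1.23) and that of *Crtc2* by 1.13 (range 1.06 to 1.25), in 4 of 4 mice each. The exact sign-flip test over 4 mice gave a two-sided p of 0.125 for both, which is the smallest it can give. Of 4 such comparisons between genes, all gave this p, which Benjamini-Hochberg adjustment over them leaves at 0.125.

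Of the kinases, *Sik1* rose and came down again, and *Sik2* and *Sik3* were higher only at 4 h by the test. *Sik1* (ENSMUSG00000024042, chromosome 17, 31844250 to 31855804, minus strand), the inducible member of the family, had normalized counts of 184, 257, 21.2 and 223 in untreated BMDMs. They were 4964, 5350, 4568 and 4780 at 1 h, and 1004, 1307, 830 and 946 at 4 h. The 3 groups did not overlap, with or without the low untreated library. The log2 fold change at 1 h was 4.87 ± 0.39 (edgeR adjusted p = 2.61e-07), or 29.3-fold, and without that library 4.49 ± 0.16 (edgeR adjusted p = 3.52e-10), or 22.5-fold. At 4 h it was 2.61 ± 0.37 (edgeR adjusted p = 5.10e-05), and 2.21 ± 0.15 without that library (edgeR adjusted p = 1.09e-07). From 1 h to 4 h *Sik1* fell by 2.27 ± 0.33 on the log2 scale (edgeR adjusted p = 7.74e-05), or 4.82-fold, and the fall was seen in 4 of 4 mice. By p-value *Sik1* ranked 241 at 1 h with all libraries and 27 without the low one.

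*Crem* and *Sik1* were both lower at 4 h than at 1 h. At 1 h their rises were 29.9-fold and 29.3-fold with all libraries, but 32.7-fold and 22.5-fold without the low untreated library, and that difference was not tested. In the 4 mice, the log2 change of *Crem* from 1 h to 4 h averaged -0.78 and that of *Sik1* -2.28. The difference within mice ranged from 1.25 to 1.76, the fall of *Sik1* being the larger in 4 of 4 mice (exact sign-flip test, two-sided p = 0.125, the smallest that 4 mice allow, so that it could not pass the threshold). The change from 1 h to 4 h uses no untreated library.

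*Sik3* (ENSMUSG00000034135, chromosome 9, 46012820 to 46224194, plus strand), a broadly expressed kinase of the family, stood at 1712, 1749, 1687 and 1466 in untreated BMDMs, at 1475, 1636, 1530 and 1414 at 1 h, and at 2976, 3037, 2952 and 2931 at 4 h. All 4 h libraries lay above all others, within 2931 to 3037, while the untreated and 1 h libraries overlapped. In the edgeR fit the log2 change was -0.13 ± 0.06 at 1 h (edgeR adjusted p = 0.181), 0.85 ± 0.06 at 4 h (edgeR adjusted p = 5.11e-08) and 0.97 ± 0.06 between the time points (edgeR adjusted p = 2.00e-08). At 1 h the value passed the threshold as a fall without the untreated library of mouse 4 (-0.18, adjusted p = 0.0491). *Sik3* is the gene with 3 half-sites in the printed promoter.

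*Sik2* (ENSMUSG00000037112, chromosome 9, 50892801 to 51009073, minus strand), first described in adipose tissue, followed the same course with a smaller step. Its counts were 803, 744, 677 and 725 in untreated BMDMs, 679, 758, 687 and 748 at 1 h, and 1014, 1119, 1042 and 987 at 4 h. The untreated and 1 h libraries interleaved, and all 4 h libraries were higher. The log2 fold change was -0.04 ± 0.06 at 1 h (edgeR adjusted p = 0.761) and 0.50 ± 0.06 at 4 h (edgeR adjusted p = 2.02e-05). At 4 h the log2 change of *Sik3* exceeded that of *Sik2* by 0.35 within mice (range 0.19 to 0.55, exact sign-flip test, two-sided p = 0.125, the smallest possible). The opposite-strand gene *Ppp2r1b* covers 15.0% of the exon bases of *Sik2* and had 17522 counts in all against 10058, and since the strand option of the counting is not given in the sources used here, reads of these genes in the overlap may not be told apart.

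Per kilobase, *Sik3* held 61.9% ± 6.07 of the kinase set in untreated BMDMs, *Sik2* 26.9% ± 1.47 and *Sik1* 11.2% ± 6.69. Without the low library the shares were 58.9%, 26.6% and 14.4%. At 1 h *Sik1* held 80.1% ± 0.760, and at 4 h *Sik3* was again the largest with 51.1% ± 3.08, followed by *Sik1* with 31.5% ± 3.72 and *Sik2* with 17.4% ± 0.794. By the longest transcript, *Sik1* held 8.44% (10.9% without the low library), 74.4% and 25.2%. The summed level of the kinases was 288 ± 26.8 in untreated BMDMs (299 ± 20.0 without the low library), 1195 ± 73.8 after 1 h and 627 ± 49.0 after 4 h.

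The order of the 10 genes per kilobase of exon differed between the groups. In untreated BMDMs *Crtc2* (320) was followed by *Sik3* (177) and *Atf1* (141), and these did not overlap with their neighbours. *Crtc3* (87.7), *Creb1* (77.7) and *Sik2* (77.3) came next and overlapped in sequence, and *Crtc1* (41.6), *Sik1* (33.4, or 43.1 without the low library), *Crem* (33.1) and *Creb5* (30.1) overlapped at the bottom. At 1 h *Crem* (994) and *Sik1* (958) overlapped at the top, above *Crtc2* (297). At 4 h *Crem* (575) was still first, *Crtc2* (335) and *Sik3* (319) overlapped behind it, and *Crtc3* (200), *Sik1* (199) and *Atf1* (171) overlapped after them. *Crtc1* (45.3) was last. Much of this order depends on the length used. Per kilobase of the longest transcript, untreated *Creb5* stood above *Crem* (66.6) and *Crtc1* (45.3), *Crem* (1999) stood above *Sik1* (1087) at 1 h, and at 4 h *Sik3* (473) was above *Crtc2* (458) and *Crtc3* (386) above *Sik1* (226). With either length *Crtc2* was first in untreated BMDMs and *Crem* first after fenoterol.

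The course of a few other genes was nearest to those of *Crem* and *Sik1*. Likeness was measured as the root-mean-square difference of log2 values, relative to the untreated mean, over 12 libraries and 10290 genes. Nearest to *Crem* were *Adora2b*, an adenosine receptor gene (0.31), *Fosl2*, an AP-1 factor gene (0.40), and *Cytip* (0.47), and the same 3 genes were nearest without the untreated library of mouse 3. *Adora2b* had group means of 34.9 untreated, 973 after 1 h and 575 after 4 h. Nearest to *Sik1* were *Il1b* (0.84), *Phlda1* (0.88) and *Fosl2* (0.98) over 12 libraries. Without the low library they were *Nfil3* (0.20) and *Jdp2* (0.30), both bZIP repressor genes, with *Cbarp* (0.25) between them, so this list rested on 1 library.

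The proteins that the 10 gene products act with were followed in a list of 48 genes, 46 of which were tested. *Camk4* and *Prkaa2* had too few counts. At 1 h 12 of the 46 (26.1%) differed, 7 higher and 5 lower, against 20.1% of all genes, and at 4 h 24 (52.2%), 13 higher and 11 lower, against 40.0%. The share at 1 h is near that of all genes. Their median log2 fold change was 0.07 at 1 h and 0.04 at 4 h. Between the time points 24 differed (52.2%, against 38.5% of all genes), 12 in each direction. The split by direction depended on the scaling: with library size only, 4 were higher and 7 lower at 1 h, and 17 higher and 10 lower at 4 h than at 1 h. Genes named for these lists were taken by a fixed rule of change and p-value, except *Hdac4*, *Hdac7*, *Ywhag*, *Ywhaz*, *Stradb*, *Ppp3cb*, *Ppp3r1*, *Rcan1*, *Crebl2*, *Creb3*, *Creb3l2*, *Rps6ka3* and *Rps6ka5*, which were picked after their values were seen.

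Class IIa histone deacetylases, which SIKs phosphorylate and keep out of the nucleus, differed in all 4 members at 4 h, where 40.0% of all genes did, with 3 higher and 1 lower. *Hdac5* went from 3068 ± 263 (SD, n = 4) to 6970 at 1 h and 6594 at 4 h, a log2 fold change of 1.18 ± 0.08 (edgeR adjusted p = 2.95e-08) and 1.10 ± 0.08 (edgeR adjusted p = 3.68e-08). *Hdac4* was higher at 4 h by 0.68 and *Hdac7* by 0.35, the latter after a fall by 0.29 at 1 h (edgeR adjusted p = 0.0256). *Hdac9* moved the other way, from 194 to 72.8 at 4 h (-1.41 ± 0.12, edgeR adjusted p = 3.42e-07), with 229 at 1 h (adjusted p = 0.175).

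Of the 7 genes for 14-3-3 proteins, which bind phosphorylated CRTCs, HDACs and SIKs, 3 were higher at each time point, *Ywhah*, *Ywhaz* and *Ywhag*, and none lower. This is 42.9% of the list, where 10.0% of all genes were higher at 1 h and 19.7% at 4 h, and 20.1% and 40.0% differed in either direction. *Ywhah* had the largest change, from 1923 to 3287 at 1 h (0.77 ± 0.08, edgeR adjusted p = 5.58e-06) and 5747 at 4 h (1.58 ± 0.08, edgeR adjusted p = 1.74e-09). *Ywhaz* was higher by 0.38 and 0.56, and *Ywhag* by 0.17 and 0.19.

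Upstream of the SIKs, *Stk11*, which encodes the activating kinase LKB1, was higher at 1 h (1906 to 3054, 0.68 ± 0.06, edgeR adjusted p = 5.98e-07) and at 4 h (2515, 0.40 ± 0.06, edgeR adjusted p = 5.97e-05). Of the other 4 genes of the LKB1 complex, *Cab39l* (0.20) and *Stradb* (0.18) were higher at 4 h, where 19.7% of all genes were. Of the kinases related to SIK, *Prkaa1*, an AMPK catalytic subunit gene, was higher at 4 h (0.32, edgeR adjusted p = 0.00101), and *Mark2* had 1756, 1660 and 1763 with no difference passing the threshold.

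Of 5 genes for calcineurin, the phosphatase that acts on CRTCs, and its regulator, 3 were lower at 4 h, all for catalytic subunits, where 20.4% of all genes were lower. *Ppp3ca* went from 3625 to 2279 (-0.67 ± 0.06, edgeR adjusted p = 3.94e-07), *Ppp3cc* from 159 to 105 (-0.59 ± 0.14) and *Ppp3cb* from 825 to 722 (-0.19 ± 0.05). The regulatory subunit gene *Ppp3r1* did not pass the threshold at 4 h (0.06, adjusted p = 0.630). *Rcan1*, a calcineurin inhibitor gene, was lower at 1 h (-0.27, edgeR adjusted p = 0.0233). Among genes for catalytic subunits of protein phosphatase 1, which dephosphorylates CREB, *Ppp1cb* was higher at 1 h (0.33) and *Ppp1cc* lower at 4 h (-0.40). *Cop1*, a ubiquitin ligase for CRTC2, did not pass the threshold (adjusted p = 0.407 and 0.329).

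Of 10 related bZIP genes, 2 differed at 1 h and 4 at 4 h, against 20.1% and 40.0% of all genes. *Crebrf* was lower at 4 h (2946 to 1807, -0.70 ± 0.06, edgeR adjusted p = 5.19e-07) and *Atf7* at 1 h (-0.30) and 4 h (-0.46). *Crebl2* was higher at 1 h (0.29), and at 4 h *Creb3l2* was higher (0.46) and *Creb3* lower (-0.28). *Ep300*, which encodes p300, was lower at 1 h (5035 to 3512, -0.52 ± 0.06, edgeR adjusted p = 3.12e-05) and at 4699 at 4 h (adjusted p = 0.244), and *Taf4*, a TFIID subunit that contacts CREB, was higher at 4 h (0.21, edgeR adjusted p = 0.0436). Among CREB kinases other than PKA, *Camk1* was lower at 4 h (-0.84 ± 0.09, edgeR adjusted p = 2.19e-06) and *Rps6ka1* at both time points (-0.38 and -0.20). At 4 h *Rps6ka5* was higher (0.46) and *Rps6ka3* lower (-0.28).

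**Figure D4:**
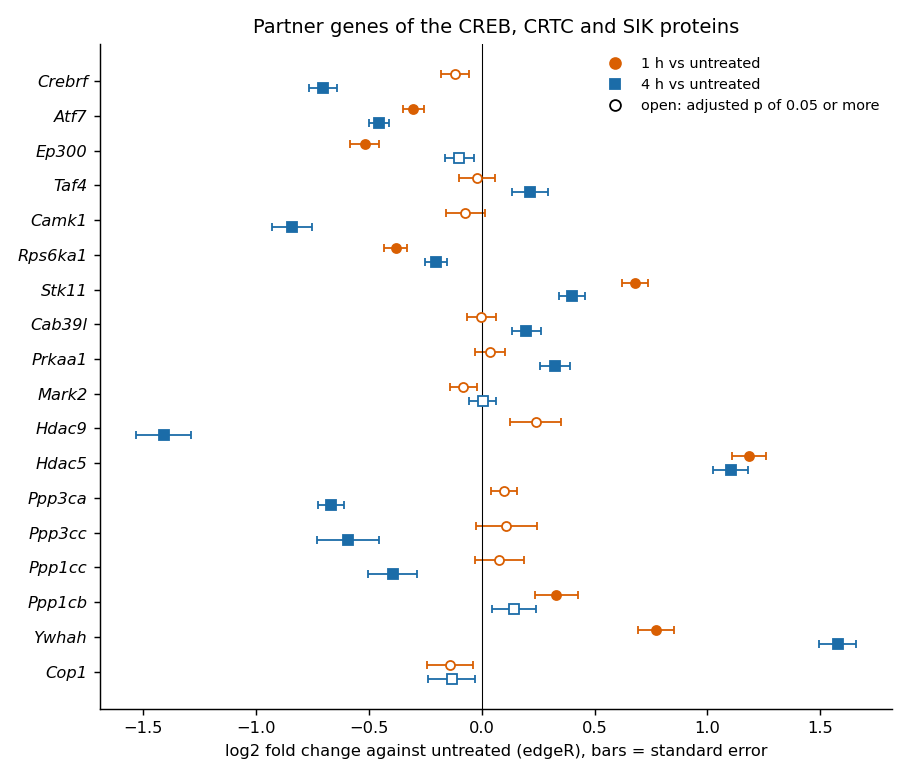
Log2 fold changes from edgeR of the named partner genes at 1 h and 4 h against untreated BMDMs, with standard errors as bars, and open symbols where the adjusted p was 0.05 or more. *Hdac5*, *Ywhah* and *Stk11* were higher at both times, and *Hdac9* (-1.41) was the lowest at 4 h.

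Genes known to be set by the CRTC3 and SIK branch in macrophages moved in different directions. *Tnfsf14* was higher at 1 h (128 to 695, 2.45 ± 0.12, edgeR adjusted p = 1.57e-09) and at 4 h (561, 2.14 ± 0.12, edgeR adjusted p = 4.97e-09). *Il10* had 62.3, 88.4, 83.9 and 62.4 in untreated BMDMs, 61.6, 86.7, 72.6 and 63.6 at 1 h, and 26.1, 43.8, 41.6 and 24.2 at 4 h. It was lower at 4 h in all 4 mice (-1.13 ± 0.22, edgeR adjusted p = 0.000916), with no overlap, and did not differ at 1 h by the test (adjusted p = 0.897). *Sphk1* was too low to be tested. The 4 CREB targets that the study followed by qPCR, *Nr4a1*, *Klf4*, *Dusp1* and *Ptgs2*, were all higher at 1 h and lower at 4 h than at 1 h, where 10.0% and 19.8% of all genes were, and *Klf4* did not pass the threshold at 4 h against untreated BMDMs (adjusted p = 0.568).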

How the data were processed

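RNA of 12 BMDM cultures, 3 groups from the same 4 mice, was sequenced per the labels as stranded mRNA libraries with single-end reads. The authors mapped reads to GRCm38 with TopHat2 2.0.11, counted them per gene with HTSeq 0.8.0 and deposited raw counts, and tested them with vsn and limma. The annotation release and strand option are not given in the sources used here. Symbols of 53274 of 53379 genes came from GENCODE M21.

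Counts were tested in R 4.3.3 with edgeR 4.0.16 (filterByExpr, TMM, quasi-likelihood, 1 fit over 12 libraries, Benjamini-Hochberg over the 12386 genes tested in each comparison). The script was tested on simulated data. TMM factors were near 1 (1.00 to 1.02 untreated, 1.02 to 1.04 after 4 h) but below it after 1 h (0.953 to 0.974), and the biological coefficient of variation was 0.112. Log2 differences within mice used a pseudocount of 0.5. Named partner genes were, in each list, up to 4 that differed at least 2-fold, or otherwise the 2 with the smallest adjusted p; the 3 nearest courses needed a mean of at least 50.

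The members and lists were chosen with earlier results of these data known. The result of 1 listed target gene is not reported here. Per the labels, a shared number means 1 animal: deviations from group means correlated with r from 0.290 to 0.561 in 12 same-mouse pairs and from -0.304 to 0.0912 in 36 others. Alternatives were DESeq2 1.42.0, limma 3.58.1 (voom and trend), other scalings and filters, 2 groups only, the mouse as a block, a threshold of 0.01, each library left out and the longest transcript. Figures were drawn with matplotlib 3.10.9.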

Additional observations from a re-analysis of the deposited data

Results flagged for a closer look

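Of the 10 genes, 8 differed between 1 h and 4 h of fenoterol in edgeR's quasi-likelihood test, that is their effect was not the same at both times. Of all 12386 genes tested, 38.5% differed, 18.7% being higher and 19.8% lower at 4 h. *Crem* (-0.79) and *Sik1* (-2.27) were lower at 4 h than at 1 h on the log2 scale. *Atf1* (0.43), *Creb5* (0.44), *Crtc1* (0.48), *Sik2* (0.54), *Crtc3* (0.86) and *Sik3* (0.97) were higher. The adjusted p-values ranged from 2.00e-08 for *Sik3* to 0.00196 for *Crtc1*, and each direction was seen in 4 of 4 mice. On the scale of normalized counts, Dixon's test flagged no sample as far from the other 3 in any of 30 groups, where chance flags about 1 in 20. The low *Sik1* value in the untreated library of mouse 3 was included (21.2, against 184, 257 and 223). Given the spread of those other values, no low count, however small, could have been flagged there on this scale. The test therefore cannot decide whether this value stands apart, and it was not run on the log2 scale.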

How the results depend on the processing

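Of 660 alternative log2 fold changes of the 10 genes, 638 kept their direction and side of the threshold, 7 lost the call, 13 gained it and 2 turned without a call. The number of genes that differed at 1 h went from 5 to 8 with library size only and to 3 at an adjusted p under 0.01, and that of partner genes from 12 to 7 at that threshold. With library size only, 2918 of all 12386 genes differed at 1 h, in place of 2493. For the threshold of 0.01 the share of all genes is not given here. Library size only added falls at 1 h of *Creb1* (-0.22), *Atf1* (-0.23) and *Sik3* (-0.20) and rises from 1 h to 4 h of *Creb1* (0.28) and *Crtc2* (0.27). With each library left out, 4 to 6 genes differed at 1 h, 6 or 7 at 4 h and 8 or 9 between the times. Of all genes tested in these fits, 2100 to 2482, 4463 to 4976 and 4209 to 4735 differed. Over these left-out libraries *Creb1* at 4 h ranged from -0.026 to 0.096 and *Sik2* at 1 h from -0.073 to 0.0065, turning without the 4 h library of mouse 2 and the untreated library of mouse 1. *Creb1* from 1 h to 4 h gained the call without the 4 h library of mouse 1 or 3, and *Crtc2* without the 1 h or 4 h library of mouse 4. *Crtc1* at 1 h lost it in a fit of only the untreated and 1 h groups (adjusted p = 0.0542). The cause was not tested. With the mouse as a block (paired by animal), 5, 7 and 10 genes differed, and apart from *Creb1* and *Crtc2* between the times it changed no other call of the 10 genes. The calls over all 12386 genes went up as well, from 2493, 4958 and 4773 to 3348, 5870 and 5775. Those of partner genes went from 12, 24 and 24 to 12, 27 and 25. Chosen after seeing the data, the block without the untreated library of mouse 3 called 5, 7 and 9 genes: between the times it kept the call of *Creb1* (adjusted p = 0.0374) and lost that of *Crtc2* (adjusted p = 0.0699). In that fit 3165, 5554 and 5799 of all 12516 genes tested differed. Of 30 family shares, 26 moved by more than their SD with the longest transcript.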
